A study of Mus musculus with 35 samples.

Results

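Cytosolic ribosomal protein genes were followed in a mouse series on leukemia driven by NUP98 fusion proteins. The genes were taken by symbol (Rpl or Rps and a digit, with Rplp0, Rplp1, Rplp2 and Rpsa), which 106 symbols matched; 10 S6 kinase genes and 7 pseudogenes were left out. Of the remaining 89 genes, 82 had a value of at least 10 normalized counts in at least 3 libraries, out of 24454 genes in the table. They divide into 41 genes of the large subunit, 31 of the small subunit, the 3 stalk genes and 7 duplicated or related forms. The 7 genes below the bound were Rpl10l, Rpl26, Rpl32l, Rpl34, Rpl39l, Rps23rg1 and Rps27rt.

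RNA came from GFP- and CD45.2-sorted bone marrow cells of transplanted C57BL/6 mice in 3 models, each with doxycycline-regulatable expression of 1 fusion: NUP98-NSD1, NUP98-JARID1A or NUP98-DDX10. In every model, the untreated group holds 4 libraries (1 carries day 3 in its title and 3 carry day 5), and there are 3 libraries after each of 3 and 5 days of doxycycline at 4 mg/ml. A further 3 libraries titled as controls came from untreated mice, and their genotype labels list all 3 fusions with the DDX gene spelled differently in each, so their genotype is uncertain. These 33 libraries form 10 groups; the labels do not number animals, leukemias or clones, so a p-value reflects the spread between libraries, which may be technical. Doxycycline lowered the fusion transcript in each model. NUP98-DDX10 had 9003 to 14121 normalized counts untreated and 3.19 to 8.01 under doxycycline, NUP98-JARID1A 3042 to 3489 and 60.2 to 100.3, and NUP98-NSD1 52599 to 58497 and 40.3 to 58.1. The controls were listed at 0 for NUP98-DDX10 and NUP98-NSD1, but had 2.52, 18.2 and 72.0 normalized counts of NUP98-JARID1A, the highest within the range of the doxycycline libraries of that model. The blood and myeloid genes Ptprc, Spi1, Cebpa, Mpo and Elane were present in every library. Libraries held 12043519 to 28912315 reads in genes and constructs.

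A cytosolic ribosome is built from a small subunit, which reads the messenger RNA, and a large subunit, which joins the amino acids. Its proteins are made in balanced amounts, and many of their messenger RNAs begin with a run of pyrimidines (the 5′ TOP motif), through which TOR signalling controls their translation. In blood cells, loss of a single copy of some of these genes gives anemias such as Diamond-Blackfan anemia, and free RPL5 and RPL11 bind MDM2 and stabilize p53. Normalized counts are reads divided by a size factor per library. A gene is said to rise, fall or change where its Benjamini-Hochberg adjusted p from limma, over 12687 features in 1 fit of all 33 libraries, was under 0.05. Fold changes are on the log2(value + 1) scale with the standard error (SE), which understates the change of low genes. In these bulk samples fewer cells of a type and less RNA per cell cannot be told apart.

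The 82 genes together took 2.40 to 2.52% of all reads in the untreated NUP98-NSD1 libraries, 1.87 to 2.26% in NUP98-DDX10 and 1.46 to 2.0% in NUP98-JARID1A. At day 5 these shares were 1.98 to 2.12%, 1.99 to 2.29% and 0.978 to 1.39%, so that the day 5 libraries lay wholly below the untreated ones in NUP98-JARID1A and NUP98-NSD1 and overlapped them in NUP98-DDX10. The day 3 shares, 2.22 to 2.33%, 2.16 to 2.42% and 1.45 to 1.74%, lay wholly below untreated in NUP98-NSD1 alone. As normalized counts the summed level at day 5 against untreated differed by -0.13, -0.03 and -0.25 on the log2 scale in the order NUP98-NSD1, NUP98-DDX10 and NUP98-JARID1A. On that scale the NUP98-JARID1A groups overlapped, at 237557 to 301045 untreated and 204532 to 244771 at day 5. Summed per kilobase of exon they overlapped too, at 296098 to 377880 and 251562 to 297794. Without the 3 members of highest mean level they did not, at 160480 to 203094 and 135430 to 156369 normalized counts. In NUP98-NSD1 the sums of all members, 352904 to 371974 untreated and 324155 to 336966 at day 5, did not overlap. The control libraries were uneven, at 1.05%, 1.07% and 2.38%.

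**Figure D1:**
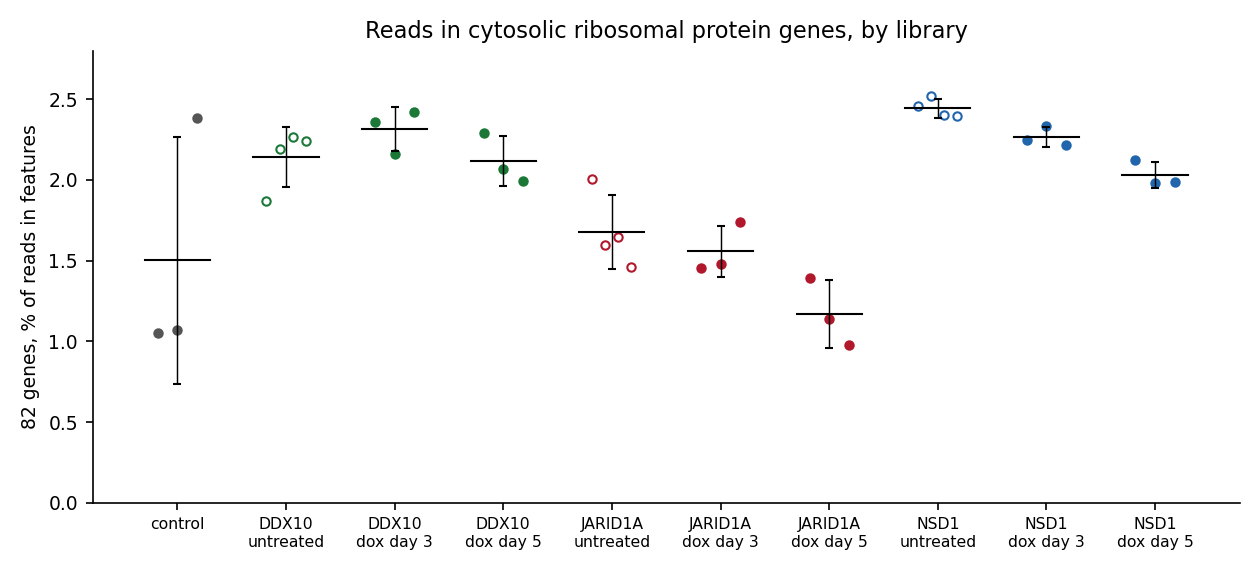
Summed reads of the 82 ribosomal protein genes as a percentage of all reads in genes and constructs (y axis), 1 point per library, with the group mean as a line and the SD as a bar, for the 10 groups (x axis). The 3 NUP98-JARID1A day 5 libraries sit at 0.978 to 1.39%, below the untreated libraries of that model at 1.46 to 2.0%, and control replicate 3 sits at 2.38%, above the other 2 controls.

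Levels differed widely between the genes, although a ribosome holds 1 copy of most of these proteins. Per kilobase of the RefSeq Select transcript, the mean over the 33 libraries was lowest for Rpl3l, a form known from heart and skeletal muscle, at 13 normalized counts. Among the high genes were Rps26 (chr10:128624529-128626506, GRCm38) at 43106 per kilobase, the stalk genes Rplp1 at 28912 and Rplp0 at 25796, and Rpl8 at 22245. Next to Rpl3l at the low end stood Rpl5 at 13.4 per kilobase and Rpl11 at 16.8, the pair that forms the 5S ribonucleoprotein, and Rpl21 at 19.6. In all, 24 genes had a mean under 100 normalized counts and 8 a mean of at least 10000.

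Many ribosomal protein genes have processed pseudogenes that copy their transcript, and how reads matching several places were counted is not given in the sources used here. The transcript of each gene was therefore divided into overlapping 50-base windows, and the share of windows found nowhere else in GRCm38.p6 was counted. No window was found nowhere else for Rpl28 and Rps27, all were for Rpl3l and Rps19bp1 among others, and the share was under 50% for 53 of 82 genes. The 19 genes with under 10% of such windows had a median level of 64.3 per kilobase, and 13 of them had a mean under 100 normalized counts. The 34 genes at 10 to 50% had a median of 1348 per kilobase, with 7 under 100, and the 29 genes at 50% and over had 1470, with 4 under 100. Over the 82 genes, which share the libraries, level per kilobase and window share had a Spearman rho of 0.35 and a Pearson r of 0.31 on the log10 scale, given as a description. Rps18 was high with 1.40% of its windows found nowhere else, and Rpl5 and Rpl11 were low with 50.7% and 53.1%. For genes with few such windows, levels between genes are uncertain, and reads of a gene and its copies cannot be told apart here. Of the exon bases of Rpl5, 47.3% lie opposite Dipk1a on the other strand, and the strand setting of the counts is not given.

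**Figure D2:**
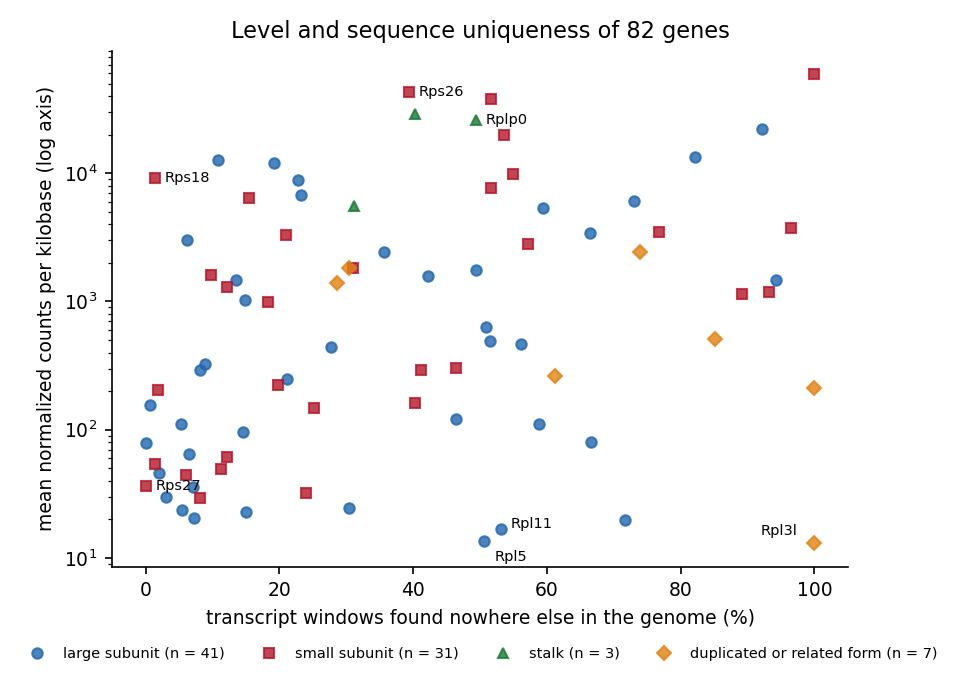
Mean normalized counts per kilobase of transcript (y axis, log scale) against the percentage of 50-base transcript windows found nowhere else in the genome (x axis), 1 point per gene, with colour and shape for the role. Most genes under 100 per kilobase lie at the left, but Rpl5, Rpl11 and Rpl3l are low with 50.7%, 53.1% and 100% of such windows. Of the exon bases of Rpl5, 47.3% lie opposite Dipk1a.

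The first question was whether the ribosomal protein genes moved when doxycycline lowered the fusion. Averaged over the 3 models, 1 gene fell and 0 rose at day 3, where 18.6% of all features changed. At day 5, where 46% of all features changed (22.6% rose and 23.4% fell), 9 of 82 fell and 1 rose. The count is far below the background share. It rests on a spread pooled over all 10 groups, the uneven controls included, so it also depends on that spread. The falls were small, and 66 of 82 genes had a negative log2 fold change. The median was -0.13 beside -0.00 over all features, and the range was -0.51 to 0.48. Of the 9 genes that fell, 5 encode large subunit proteins (of 41) and 4 small subunit proteins (of 31). The gene that rose is of the small subunit, and no stalk gene and no related form passed the test. All 9 had a negative sign in each of the 3 models. They were chosen by their mean over these same models, so this agreement is no separate evidence. Over all members 33 had the same sign in the 3 models, 32 of them negative.

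Rpl19, a large subunit protein that reaches across to the small subunit, had the largest mean fall at day 5, -0.51 ± 0.13 (adjusted p = 0.00193), and was the only member to pass at day 3 (-0.38 ± 0.13, adjusted p = 0.0416). It was a low gene, at 26.5, 39.5, 27.2 and 27.4 normalized counts in untreated NUP98-DDX10 and 23.1, 19.4 and 15.02 at day 5, which did not overlap. In NUP98-JARID1A it had 22.2, 19.9, 17.7 and 21.3 untreated and 10.9, 12.1 and 16.7 at day 5, which did not overlap either, and in NUP98-NSD1 44.5, 46.0, 50.9 and 35.9 against 33.4, 40.9 and 32.5, which did. Of its transcript windows 7.11% were found nowhere else, and 29.1% of its exon bases lie opposite Cacnb1, a calcium channel gene on the other strand. The day 3 fall was lost in 22 of the 34 alternatives run, and the day 5 fall in none of them.

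Rps15, at the head of the small subunit, fell by 0.33 in the mean at day 5 (SE 0.09, adjusted p = 0.00316). Untreated NUP98-DDX10 libraries had 4227, 4269, 4525 and 4882 normalized counts, with 5809, 6440, 5529 and 5361 in NUP98-NSD1 and 3704, 1868, 2967 and 2795 in NUP98-JARID1A. At day 5 the values were 4152, 3468 and 4421 in NUP98-DDX10, 4446, 4597 and 5352 with NUP98-NSD1 and 1576, 2231 and 1901 with NUP98-JARID1A. Day 5 lay wholly below untreated in NUP98-NSD1, and the groups overlapped in NUP98-DDX10 and NUP98-JARID1A.

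Rps26, a small subunit protein at the mRNA exit and a Diamond-Blackfan anemia gene, fell by 0.29 (SE 0.08, adjusted p = 0.00221). NUP98-NSD1 libraries had 29343, 24326, 24888 and 24932 normalized counts untreated and 22904, 20744 and 22231 at day 5, without overlap. NUP98-DDX10 had 15909, 16110, 16348 and 16241 against 15805, 12768 and 12767, again without overlap. NUP98-JARID1A had 24790, 19684, 19329 and 18836 against 18912, 13679 and 14304, where 1 day 5 library reached into the untreated range. Rps24, another Diamond-Blackfan anemia gene, fell by 0.32 (adjusted p = 0.00369).

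Rpl12, a protein at the base of the stalk, fell by 0.38 (SE 0.13, adjusted p = 0.0205). It had 170, 188, 181 and 188 normalized counts in untreated NUP98-NSD1 and 132, 122 and 144 at day 5, without overlap. In NUP98-DDX10 it had 57.2, 59.3, 54.4 and 54.9 against 64.8, 44.1 and 61.1, which crossed the untreated range on both sides. Of its transcript windows 0.679% were found nowhere else. The falls of Rpl13a, Rps4x and Rpl29 were smaller, at -0.27 (0.0493), -0.22 (0.0178) and -0.20 (0.0294), and that of Rpl13a was lost in 22 of 35 alternatives. Without NUP98-JARID1A the mean was -0.23 for Rpl12 (adjusted p = 0.220), -0.14 for Rps4x (0.172), -0.10 for Rpl29 (0.398) and -0.22 for Rps15 (0.0263). It was then -0.24 for Rps24 (0.0777) and -0.25 for Rpl13a (0.202), which did not pass, while Rpl19 and Rps26 did. Quantile normalization gave -0.49 for Rps26 and -0.34 for Rps4x, both past the threshold.

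The 1 gene that rose in the mean at day 5, Rps27, a zinc-binding small subunit protein, had 0.48 ± 0.16 (adjusted p = 0.0178). The rise came mostly from NUP98-DDX10, where it was also the only member to pass, at 1.07 ± 0.28 (adjusted p = 0.0107). There it had 5.10, 17.4, 9.71 and 9.46 normalized counts untreated and 16.5, 29.04 and 20.03 at day 5, with 1 untreated library above the lowest day 5 one. In NUP98-JARID1A it had 5.05, 5.42, 4.17 and 5.80 against 7.29, 7.03 and 4.46, and in NUP98-NSD1 12.8, 14.1, 13.4 and 16.7 against 18.3, 18.1 and 11.8; both overlapped. These are few reads of a gene with no transcript window of its own. Without NUP98-DDX10 the mean was 0.19 (adjusted p = 0.425), and without replicate 2 of NUP98-DDX10 day 5 the NUP98-DDX10 rise had an adjusted p of 0.0865.

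**Figure D3:**
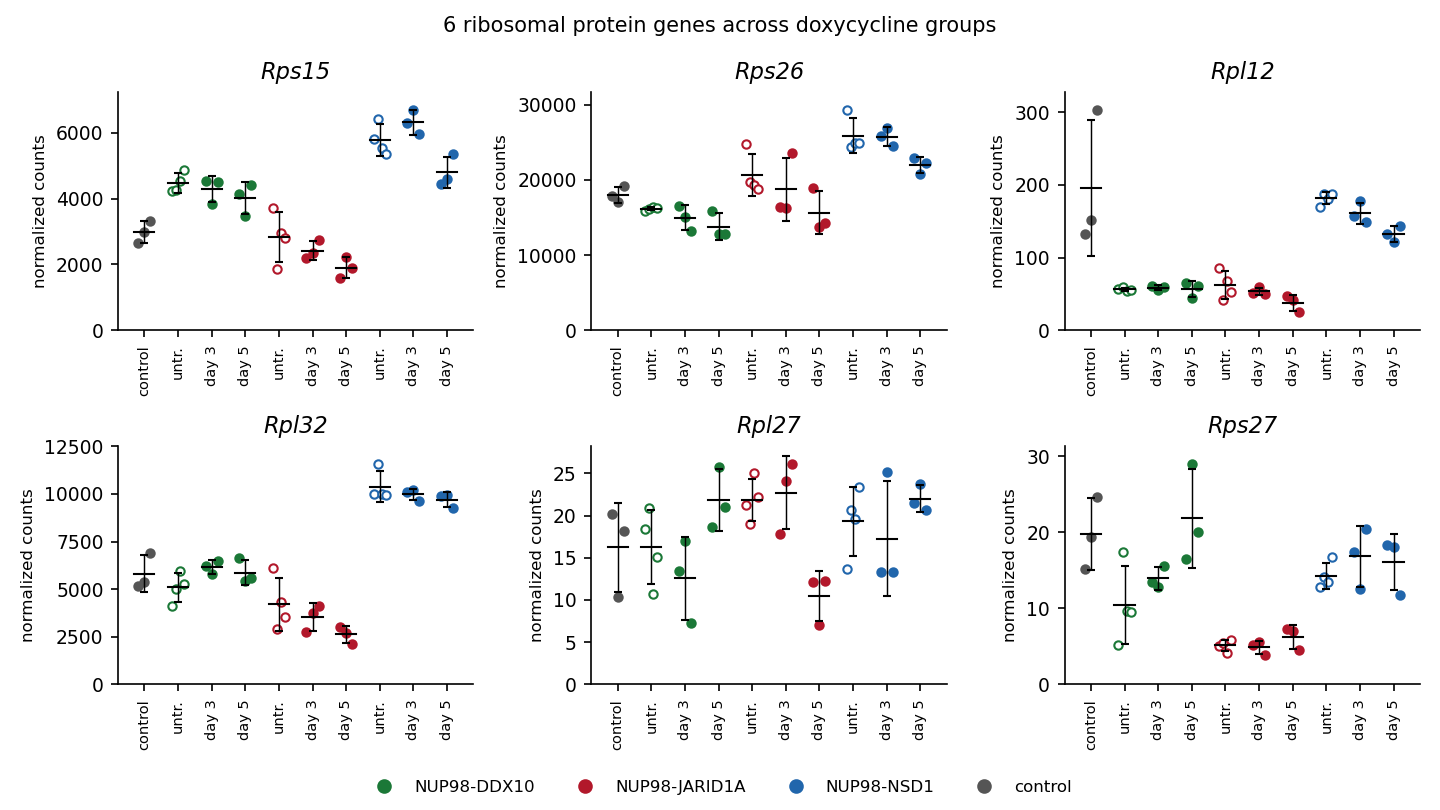
Normalized counts of Rps15, Rps26, Rpl12, Rpl32, Rpl27 and Rps27 (y axes, 1 panel per gene), 1 point per library, with the group mean as a line and the SD as a bar, for the 10 groups (x axis). Rpl32 and Rpl27 are low in the NUP98-JARID1A day 5 libraries (2118 to 3027 and 7.03 to 12.3), and Rps27 stays under 30 normalized counts in every library.

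The starts of the genes that moved in the mean at day 5 were looked up for the pyrimidine run of the TOP motif. The RefSeq promoter table of GRCm38.p6 held 61 of the 82 members with a window at their RefSeq Select start. A run of at least 8 unbroken C or T at or within 5 bases of the annotated start was found in 22 of 61 members (36.1%), beside 9.72% of the 32851 windows in the table. Unlike the members' windows, those 32851 were not limited to RefSeq Select starts, here and in the percentages that follow. A C at the start followed by 4 pyrimidines was found in 12 members (19.7%, beside 2.51%), and the longest run was 21 bases, in Rpl7a. For the 8 genes changed in the mean at day 5 that the table holds, 20 bases before and 10 bases from the start on are printed 5′ to 3′, with the longest pyrimidine run at the start in capitals as far as the window shows it.
Rpl12, chr2:32961692-32961721, plus strand: gcgtgggcggagcaggatccgTCTTTTCgg
Rpl13a, chr7:45128736-45128765, minus strand: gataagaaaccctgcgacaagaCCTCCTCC
Rpl19, chr11:98026904-98026933, plus strand: gggcttgggCTCTCCCCTTCgcagataatg
Rps15, chr10:80292411-80292440, plus strand: gccctcccggcagagCTCgcgataactgcg
Rps24, chr14:24490658-24490687, plus strand: acgcccccgcgctggggTCCTTCCTTgcgc
Rps26, chr10:128626497-128626526, minus strand: agcgggtcgggcaagccgccggaTCCTCTT
Rps27, chr3:90213639-90213668, minus strand: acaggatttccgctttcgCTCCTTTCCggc
Rps4x, chrX:102189382-102189411, minus strand: aaagtctgaggctgggcggagcaaCCCagg

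The runs were 7 bases long in Rpl12, 14 in Rpl13a, 11 in Rpl19, 9 in Rps24, Rps26 and Rps27 each, and 3 in Rps15 and Rps4x each. Long and short runs thus occur among genes that fell, and the riser Rps27 has 9 bases. The starts are annotated ones and were not measured in these cells. A short run here therefore does not show that a gene lacks the TOP motif. In the window of 250 bases before to 50 after the start, on both strands, CCGGAAG (an ETS family core) was in 22 of 61 members (36.1%, beside 8.86% of all windows), and GGGCGG (the GC box) was in 39 (63.9%, beside 35.7%). TATAAA was in 6 (9.84%, beside 13.6%), CACGTG (the E box read by MYC) in 4 (6.56%, beside 7.15%) and AAGATGGC (a YY1 core) in 5 (8.20%, beside 2.75%). These are matches of letters and not binding data.

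Model by model, in the fit of all 33 libraries, 16 of 82 members fell and 0 rose in NUP98-JARID1A at day 5. There 41.3% of all features changed and 21.2% fell, so the share of members that fell was close to the background. The median was -0.29 beside -0.02 over all features, and 76 of 82 had a negative sign. By role 8 of 41 large subunit genes, 7 of 31 small subunit genes, 0 of 3 stalk genes and 1 of 7 related forms fell, with medians of -0.29, -0.29, -0.25 and -0.38. All 3 day 5 libraries lay below all untreated ones for 9 members, where 18.4% of all features did so. Without the untreated library titled day 3, which was the highest of its group for 57 of 82 members, 5 members fell, Rpl27, Rpl32, Rpl41 and Rps15 among them. Without day 5 replicate 1, highest of its group for 50 members, 28 fell, 13 of them among the 16, and without replicate 3, lowest for 49, 7 fell. The shares of all features that fell in these refits are not given here, so the counts are not set against a background.

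The largest fall there was that of Rpl27, a large subunit protein mutated in some Diamond-Blackfan anemia families, at -1.02 ± 0.29 (adjusted p = 0.00567). It had 21.2, 19.0, 25.04 and 22.3 normalized counts untreated, 17.9, 24.1 and 26.2 at day 3 and 12.2, 7.03 and 12.3 at day 5. Day 5 lay wholly below both other groups, at few reads. Rps28, a small subunit protein, fell by 0.91 (adjusted p = 0.0193), and Rps27a, whose product is made as a fusion with ubiquitin, fell by 0.86 (0.0161). Rps27a (chr11:29545842-29548040, GRCm38) had 203, 62.3, 113 and 106 normalized counts untreated and 85.7, 65.3 and 40.1 at day 5, which overlapped.

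Rpl32, a large subunit gene often used as a reference gene, fell by 0.65 (SE 0.18, adjusted p = 0.00425) from 6106, 2893, 4341 and 3518 to 3027, 2704 and 2118 normalized counts. One untreated library lay within the day 5 range, and 10.8% of its windows were found nowhere else. Rpl41, which encodes the smallest ribosomal protein, fell by 0.58 (0.00573), and Rps15 by 0.55 (0.00483). Further falls ran from -0.69 (Rpl12) to -0.39 (Rps4x) and included those of Rpl37rt, Rpl28, Rpl19, Rpl29, Rps18, Rps24 and Rps26.

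Several of these calls rest on single libraries or on the scaling. Without day 5 replicate 3 the values were -0.54 for Rps28 (adjusted p = 0.205), -0.56 for Rps27a (0.160), -0.43 for Rpl12 (0.185) and -0.43 for Rpl37rt (0.193). Without the untreated library titled day 3 they were -0.57 for Rps27a (0.0933), -0.39 for Rpl37rt (0.135) and -0.41 for Rps18 (0.0866), and without day 5 replicate 1 Rpl28 had -0.32 (0.334). The call of Rps28 was lost in 8 of 18 alternatives, DESeq2 among them (0.0873), that of Rpl19 in 10 of 18 and that of Rpl28 in 8 of 19. Quantile normalization gave -0.81 for Rps26 and -0.62 for Rps4x. The call of Rpl41 held in all 19 alternatives, and those of Rpl27, Rpl32 and Rps15 were each lost in 1.

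In NUP98-NSD1 no member passed at day 5, where 25.4% of all features changed; by limma 0 of 82 had an unadjusted p under 0.05, and edgeR and DESeq2 called 0. At day 3, with 9.14% of all features changed, limma called 0 (3 at an unadjusted p under 0.05) and edgeR and DESeq2 called 1 each. The spread in this test is pooled over all 10 groups. All 3 day 5 libraries lay below all 4 untreated ones for 24 of 82 members, beside 19.7% of all features. A limma fit of the NUP98-NSD1 libraries alone called 18 members at day 5 (17 fell, 1 rose), beside 39.2% of all features. A fit of the NUP98-JARID1A libraries alone called 6 at day 5, beside 34.3%, so the order of the models by number of calls turned with the fit. At day 3 the fit of the NUP98-NSD1 libraries alone called 14 (9 fell, 5 rose), beside 22.8%. The median was -0.16 at day 5, with 64 negative signs, and -0.05 at day 3.

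Rps24 shows such a case, with 6659, 5938, 6149 and 6218 normalized counts untreated and 5512, 5819 and 5301 at day 5 in NUP98-NSD1. The groups did not overlap, and the pooled limma test gave -0.17 ± 0.15 (adjusted p = 0.471).

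In NUP98-DDX10 limma called 0 members at day 3 (edgeR and DESeq2 called 0 too, and 3 had an unadjusted p under 0.05), where 1.1% of all features changed. At day 5, with 15.1% of all features changed, Rps27 alone passed. The medians were 0.10 and 0.05, and 5 of 82 members had all day 5 libraries below all untreated ones, beside 19.4% of all features. NUP98-JARID1A at day 3 had 0 calls (edgeR and DESeq2 called 0 too, and 2 had an unadjusted p under 0.05) where 15.7% of all features changed, with a median of -0.10.

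**Figure D4:**
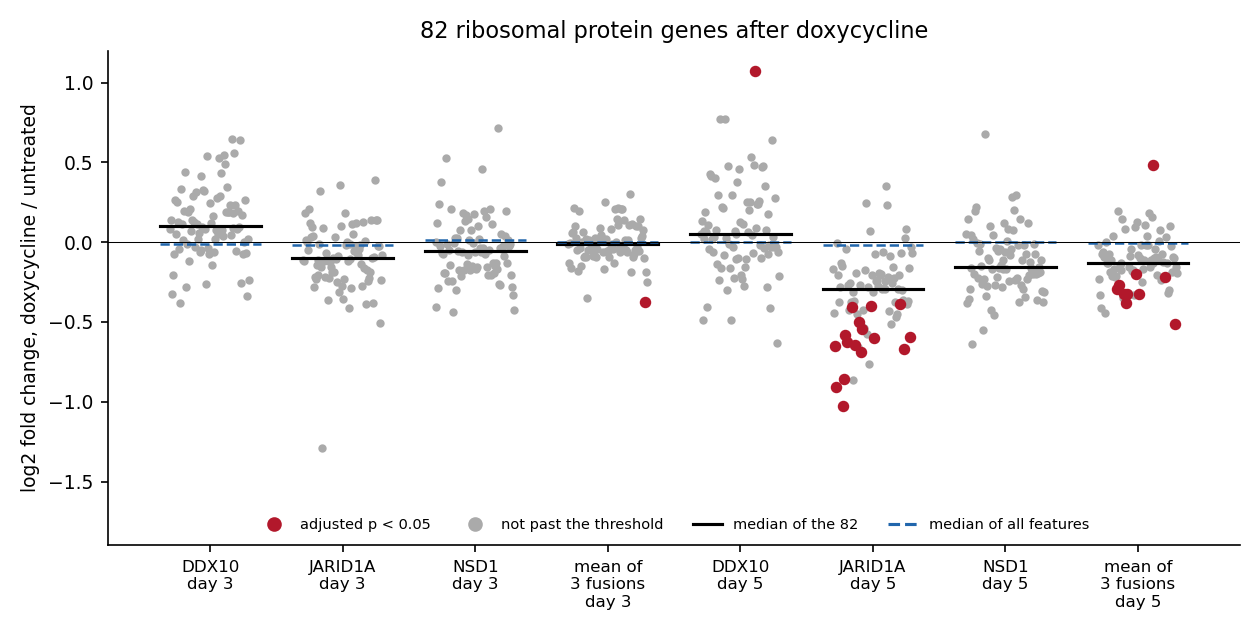
Log2 fold changes of the 82 genes (y axis, on the log2(value + 1) scale) in each doxycycline comparison against untreated (x axis), 1 point per gene, with points past the threshold in red, a black line at the median of the 82 and a dashed line at the median of all features. The NUP98-JARID1A day 5 column has the lowest median, -0.29, and 16 red points.

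From day 3 to day 5 the mean over the models fell for 5 members and rose for 0, beside 27.7% of all features changed and 13.4% that fell. They included Rps19bp1, which encodes a partner of RPS19 and not a ribosomal protein, at -0.30 ± 0.10 (adjusted p = 0.0252), and Rps15, Rps24 and Rpl29 at -0.29, -0.27 and -0.22. The calls of Rpl29, Rps24, Rps19bp1 and Rps15 were lost in 15, 13, 6 and 3 of 31 alternatives. Without NUP98-JARID1A Rpl29 had -0.09 (0.630) and Rps19bp1 -0.16 (0.277), and without NUP98-DDX10 Rps19bp1 had -0.46. In NUP98-JARID1A 6 members fell, beside 19.9% changed and 10.4% that fell. Among them were Rpl27 at -1.07 ± 0.31 (adjusted p = 0.0155), Rps28, Rpl28, Rps19bp1 and Rpl29. The call of Rps28 was lost in 13 of 16 alternatives, with adjusted p of 0.114 by edgeR and 0.177 by DESeq2. That of Rpl28 was lost in 5 of 17, with -0.50 (0.187) without day 5 replicate 1, and that of Rpl29 in 0 of 17. Limma called 0 members in NUP98-DDX10 (6 at an unadjusted p under 0.05) beside 0.93% of all features, and 0 in NUP98-NSD1 (3 at an unadjusted p under 0.05) beside 10.6%; edgeR and DESeq2 called 0 in both.

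Whether the day 5 effect differed between the models was asked with an F-test, which 3 members passed, beside 26% of all features. Rpl27 had -1.02 in NUP98-JARID1A, against 0.43 in NUP98-DDX10 and 0.20 with NUP98-NSD1 (adjusted p = 0.0175). Rpl32 had -0.65, 0.21 and -0.10 (0.031), and Rps27a had -0.86, 0.42 and 0.22 (0.0339). The call of Rps27a was lost in 10 of 32 alternatives, that of Rpl32 in 7 of 32 and that of Rpl27 in 1 of 31. Without NUP98-JARID1A day 5 replicate 2 the adjusted p of Rpl27 was 0.0816, and without replicate 3 it was 0.114 for Rpl32 and 0.158 for Rps27a. With the untreated libraries titled day 5 alone Rps27a had 0.157 and Rpl32 0.160, and with a replicate block 0.0752 and 0.0637. At day 3 0 members passed the F-test (edgeR and DESeq2 called 0 too, and 1 had an unadjusted p under 0.05), beside 7.08% of all features; the smallest adjusted p was that of Rpl17, 0.149.

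Some further genes are known from blood disease or the p53 response, as are Rps24 and Rps26, which fell. Rps14, the small subunit gene of the 5q- syndrome, had -0.02 in the mean at day 5 (adjusted p = 0.881), and Rps19, the first Diamond-Blackfan anemia gene to be known, had -0.02 (0.947). Rpl5 had -0.02 (0.926) and Rpl11 0.10 (0.713), both at few reads. Rpl22, whose loss is known in T cell leukemia, had -0.13 (0.294), and its paralog Rpl22l1 had -0.35 (0.118). Rps6, the substrate of the S6 kinases, had -0.20 (0.284).

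The stalk genes, whose products recruit the translation factors, had -0.11 (Rplp0), -0.22 (Rplp1) and -0.11 (Rplp2) in the mean at day 5, with adjusted p of 0.329, 0.262 and 0.463. Of the related forms, Rps27l, a p53-responsive copy of Rps27, had 0.11 (0.427), Rpl7l1 had -0.09 (0.329), Rpl36al -0.02 (0.929), Rpl3l 0.19 (0.682) and Rpl37rt -0.30 (0.0707). Rpl36a and Rpl39 did not pass either, with adjusted p of 0.163 and 0.0952.

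Other genes of the pathway were counted in the same mean comparison at day 5, where 46% of all features changed. Of 7 elongation factor genes 2 fell and 0 rose, Eef1g by 0.72 (adjusted p = 6.23e-07) and Eef1b2 by 0.36 (6e-05), subunits of the complex that recharges EEF1A with GTP. Of 28 initiation factor genes 5 fell and 2 rose, with Eif4b at -0.36 (2.89e-07) and Eif3g at -0.26 (0.000681). Of 19 RNA polymerase I genes, which make ribosomal RNA, 8 fell and 0 rose, with Polr1b at -0.63 (7.95e-06) and Polr1e at -0.26 (0.00115).

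Of 21 chaperones and assembly factors of ribosomal proteins 8 fell and 1 rose, with Tsr1 at -0.63 (6.04e-06) and Rrs1 at -0.49 (0.000136). Among 77 mitochondrial ribosomal protein genes 16 fell and 7 rose, with Mrps2 at -0.33 (5.9e-06) and Mrpl49 at -0.33 (1.37e-05). Of 14 other genes with TOP transcripts 3 fell and 1 rose, with Vim at 0.71 (6.91e-08) and Snhg12 at -0.50 (0.000325). None of the 3 ribosome partners passed, where Fau, whose product is made as a fusion with a ubiquitin-like protein, had -0.15 (0.299).

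Of 16 regulators of TOR and TOP messenger RNAs 5 rose and 3 fell, with the TOR inhibitors Deptor at 0.93 (2.9e-09) and Sesn2 at 0.77 (0.000347). Of 8 kinase genes of the Rps6k families 3 rose and 2 fell, with Rps6ka4 at 0.68 (5.36e-09) and Rps6ka3 at 0.60 (6.43e-07). Of 9 genes around the 5S ribonucleoprotein and p53, 6 rose and 2 fell, with Myc, a driver of ribosome production, at -1.04 (2.85e-11) and Cdkn1a, a p53 target and cell cycle inhibitor, at 0.88 (7.64e-08). In these terms elongation factors had a median of -0.17, RNA polymerase I genes -0.18 and chaperones -0.11, beside -0.13 for the ribosomal protein genes.

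Markers of blood cell types moved over the same days. In NUP98-JARID1A all 8 progenitor markers fell at day 5, and their sum went from 20956 to 28034 untreated to 3381 to 3811 normalized counts. Of 11 monocyte and macrophage markers 10 rose, the sum from 132057 to 165087 to 361406 to 385171, and of 9 neutrophil markers 6 rose, the sum from 196363 to 248125 to 621664 to 1062830. Of 9 T and NK cell markers 2 fell there, the sum from 703 to 1000 to 22.1 to 32.3, and of 5 basophil and mast cell markers 3 fell, the sum from 474 to 877 to 63.8 to 93.4. In NUP98-NSD1 at day 5 8 of 8 progenitor markers fell, and 8 of 11 monocyte and 7 of 9 neutrophil markers rose. In NUP98-DDX10 7 of 8 progenitor markers fell, 4 of 11 monocyte markers rose and 1 fell, and limma called 0 of 9 neutrophil markers (0 at an unadjusted p under 0.05). In the mean over the models 8 of 8 progenitor markers fell and 10 of 11 monocyte and 9 of 9 neutrophil markers rose. The part of these shifts in the ribosomal protein values was not tested.

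The second question was how the genes compared between the models before doxycycline, where 65 of 82 members differed in an F-test, beside 69.8% of all features. NUP98-NSD1 was the highest model for 63 members, NUP98-DDX10 for 15 and NUP98-JARID1A for 4. NUP98-JARID1A was the lowest for 56, NUP98-DDX10 for 22 and NUP98-NSD1 for 4. The highest model stayed the same in both doxycycline groups for 64 members and the lowest for 59. The median ratio of the highest to the lowest model was 1.86, and 33 members differed by at least 2-fold. Among the 65 that passed the F-test, NUP98-NSD1 was highest for 49, NUP98-DDX10 for 13 and NUP98-JARID1A for 3. NUP98-JARID1A was lowest for 43 of them, NUP98-DDX10 for 19 and NUP98-NSD1 for 3. The same orders and ratios over all features are not given here, so these counts are not set against a background.

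Rpsa, the small subunit protein related to the laminin receptor (chr9:120127766-120132369, GRCm38), had the smallest adjusted p (1.05e-11). It had 900, 963, 998 and 1133 normalized counts in untreated NUP98-DDX10, 612, 717, 719 and 695 in NUP98-NSD1 and 209, 137, 218 and 162 in NUP98-JARID1A. The 3 models did not overlap, and the ratio of the highest to the lowest was 5.50 untreated, 5.32 at day 3 and 5.43 at day 5. Of its exon bases 34.2% lie opposite the predicted gene Gm5922.

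Rpl13, a large subunit gene (chr8:123102350-123105244, GRCm38), was low in NUP98-JARID1A alone, with 495, 224, 313 and 189 normalized counts. NUP98-DDX10 had 860, 1241, 1940 and 1627 and NUP98-NSD1 1318, 1368, 1275 and 1321, which overlapped each other but not NUP98-JARID1A (adjusted p = 2.41e-09). The ratio of highest to lowest was 4.64 untreated, 8.0 at day 3 and 8.39 at day 5. Of the transcript windows of Rpl13, 13.5% were found nowhere else. Rpl37rt, a retrotransposed copy of Rpl37 (chr5:115102922-115110268, GRCm38), was highest of the 3 models in NUP98-NSD1, with 375, 452, 313 and 323, near the 335, 273 and 362 of the controls. NUP98-DDX10 had 51.0, 70.9, 62.1 and 62.5 and NUP98-JARID1A 131, 47.9, 68.9 and 63.9, and the ratio of 5.93 was the largest of the members (adjusted p = 6.37e-11).

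Rps9 differed with a ratio of 1.86 (6.27e-08), and Rpl22l1 with 4.2. Rps2 went against the common order, with its highest level in NUP98-JARID1A at a ratio of 2.01. It had 4074, 5367, 5787 and 5298 normalized counts there, above the 2149 to 3083 of NUP98-DDX10 and the 2102 to 3480 of NUP98-NSD1. Of its transcript windows 20.9% were found nowhere else.

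Against the controls 38 of 82 members passed in NUP98-NSD1, 44 in NUP98-DDX10 and 53 in NUP98-JARID1A, each a smaller share than that of all features. In NUP98-NSD1 34 members rose and 4 fell, where 64.6% of all features changed, 29.7% rose and 34.9% fell. In NUP98-DDX10 20 rose and 24 fell, where 68.5% of all features changed, 30.6% rose and 37.9% fell. In NUP98-JARID1A 15 rose and 38 fell, where 69.4% changed, 31.4% rose and 38% fell. The medians were 0.37, -0.19 and -0.42, beside -0.06, -0.11 and -0.11 over all features. The NUP98-DDX10 median turned positive under other scalings, to 0.32 with quantile normalization and 0.13 with CPM, where the medians of all features were 0.18 and 0.17. The 3 comparisons share the same 3 control libraries.

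Among the stalk genes Rplp0 rose in each model, by 1.32 in NUP98-DDX10, 0.87 in NUP98-NSD1 and 0.83 in NUP98-JARID1A. Its control values were 14868, 14202 and 29058 normalized counts, below the 43168 to 48936, 32025 to 36145 and 30928 to 35520 of the untreated models in that order. Rplp1 rose by 1.02, 0.96 and 0.84, and Rplp2 rose by 0.72 in NUP98-NSD1 and had 0.05 in NUP98-DDX10 and -0.01 in NUP98-JARID1A. The controls had 4995, 5467 and 16431 normalized counts of Rplp1 and 1405, 1853 and 3780 of Rplp2, with replicate 3 highest in both. Without it Rplp1 rose by 1.57, 1.51 and 1.39 in the same order, and Rplp2 rose in all 3 models, by 0.46, 1.13 and 0.40 in NUP98-DDX10, NUP98-NSD1 and NUP98-JARID1A. Without control replicate 1 or 2 the NUP98-JARID1A value of Rplp1 did not pass, at 0.53 (adjusted p = 0.0967) and 0.60 (0.0728), and without replicate 1 Rplp2 had 0.41 in NUP98-NSD1 (0.0647).

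In NUP98-JARID1A the largest falls from the controls were those of Rpl13, at -2.62 ± 0.26 (adjusted p = 7.67e-10) or 6.13-fold, Rpl11 at -2.22 (3.12e-06) and Rpl37rt at -2.13 (6.2e-09). The largest rises were those of Rpl30 at 1.86 (1.38e-05), Rps2 at 1.75 (2.97e-07) and Rpl6 at 0.95 (8.11e-05). In NUP98-DDX10 Rpl37rt fell by 2.37 (8.9e-10), Rpl11 by 1.88 (3.41e-05) and Rpl12 by 1.68 (3.85e-07). Rpl30 rose by 2.13 (2.02e-06), Rpsa by 1.80 (7.63e-09) and Rpl3, at the peptidyl transferase centre, by 1.62 (1.1e-06). The share of transcript windows found nowhere else was 21.1% for Rpl30 and 8.84% for Rpl3.

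In NUP98-NSD1 Rpl36a rose by 1.73 (0.00129), Rps7 by 1.35 (2.5e-06) and Rpsa by 1.26 (3.47e-06). Rpl3l fell by 2.19 (0.0025), Rpl11 by 0.85 (0.0369) and Rpl24 by 0.73 (0.0273). Rpl11 had 32.8, 40 and 87.0 normalized counts in the controls and 25.7, 29.1, 25.01 and 26.7 in untreated NUP98-NSD1, so its libraries did not overlap but were low. Rpl36a had 8.84, 11.4 and 1.30 in the controls and 19.7, 30.03, 20.54 and 15.03 in NUP98-NSD1, and Rpl3l had 75.7, 85.7 and 3.89 against 12, 4.69, 5.36 and 4.18. Control replicate 3 stood apart for both. Without it Rpl36a had 0.97 (adjusted p = 0.0335) and Rpl3l -3.54, and with quantile normalization Rpl36a had 3.19 and Rpl3l -1.30 (0.111).

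The controls were not alike. Control replicate 3 was the highest control for 68 of 82 members and the lowest for 7. Its median ratio to the mean of the other 2 was 1.64, with 23 members at least 2-fold higher and 2 at least 2-fold lower. The same counts and ratio over all features are not given here, so these are not set against a background. The 9 neutrophil markers of control replicate 3 summed to 273360 normalized counts beside 3124550 and 3412430 in the other 2. Its B cell markers summed to 88632 beside 20528 and 22680, and its erythroid markers to 70818 beside 6233 and 9467. In the fusion libraries these sums ran from 27589 to 1062830, from 1036 to 2620 and from 8.74 to 416, so that the B cell and erythroid sums of all 3 controls lay above those of every fusion library; the part of this in the ribosomal protein values was not tested. Without control replicate 3, 26 members rose and 16 fell in NUP98-DDX10, 19 rose and 31 fell in NUP98-JARID1A, and 44 rose and 1 fell in NUP98-NSD1. The medians were then 0.03, -0.25 and 0.57. The shares and medians of all features without this library are not given here, so these values are not set against a background. Rpl11 had -0.43 (adjusted p = 0.300) and Rpl24 -0.65 (0.0764) in NUP98-NSD1. In NUP98-DDX10 Rpl30 then had 2.75, Rpl3 2.16 and Rpl11 -1.47, and in NUP98-JARID1A Rpl30 had 2.49, Rps2 2.19 and Rpl11 -1.81.

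**Figure D5:**
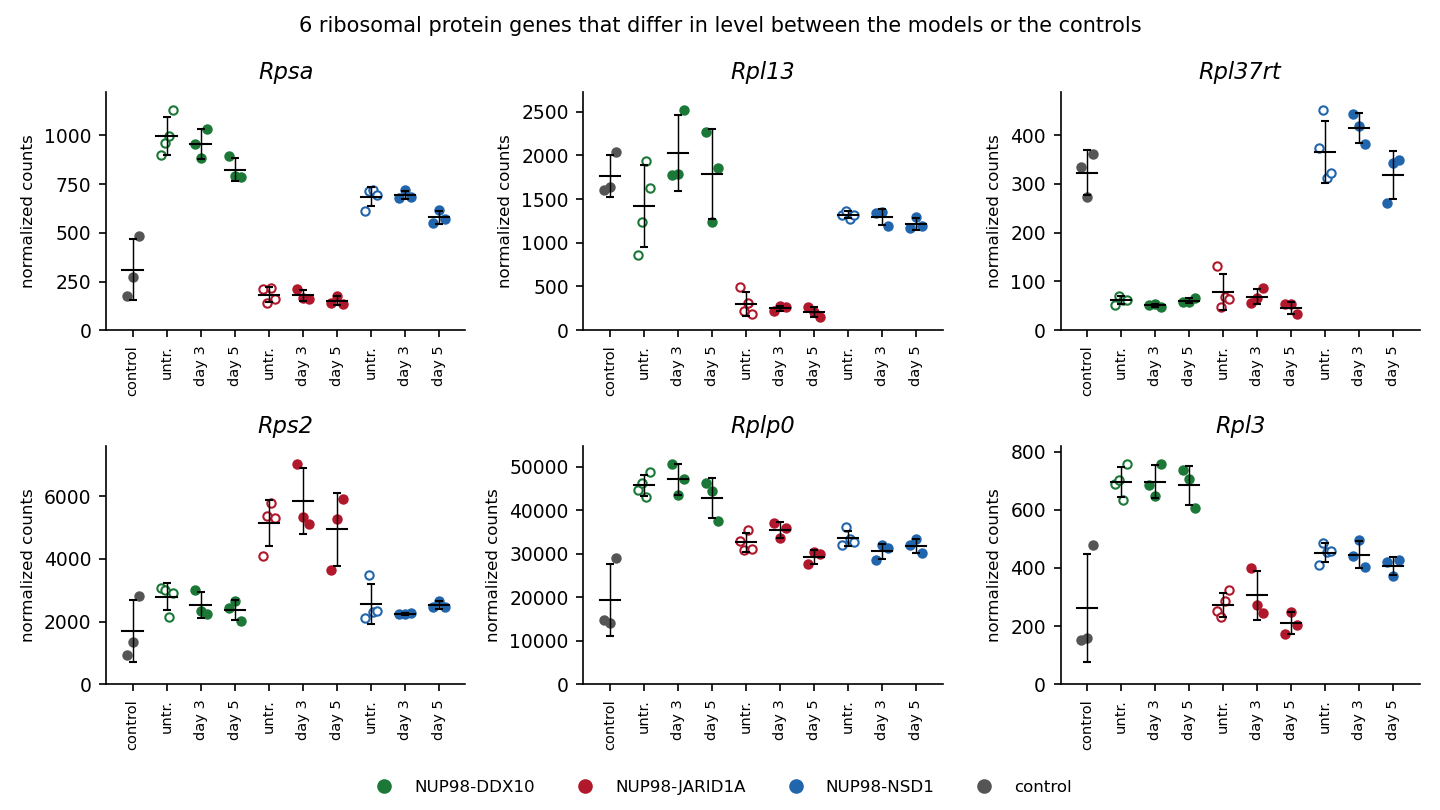
Normalized counts of Rpsa, Rpl13, Rpl37rt, Rps2, Rplp0 and Rpl3 (y axes, 1 panel per gene), 1 point per library, with the group mean as a line and the SD as a bar, for the 10 groups (x axis). Rpl13 is low in every NUP98-JARID1A library (156 to 495), Rpl37rt is higher in the NUP98-NSD1 libraries (262 to 452) and the controls (273 to 362) than in the other models, and control replicate 3 stands above the other 2 controls for Rplp0 and Rpl3.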

How the data were processed

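RNA-seq of 33 libraries was used; 2 chromatin immunoprecipitation samples were not. The values the authors deposited are normalized counts (unit: signal), that is reads divided by a size factor per library. The submitters' processing notes name, without versions, the tools DESeq2, featureCounts, SAMtools and STAR and the builds GRCm38 and mm10. Strand setting, the treatment of reads matching several places, and whether reads cover whole transcripts are not given in the sources used here. Dividing by 1 step per library turned 100% of the values into whole reads within 0.01 reads, and these recovered reads were used for count tests.

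Of 24462 features (24454 genes and 8 constructs; 24376 genes matched RefSeq), 12687 reached 10 normalized counts in 3 or more libraries and were fitted with limma 3.58.1 (R 4.3.3) on log2(value + 1), with a mean-variance trend and 1 mean per group (27.3 degrees of freedom). P-values were adjusted by Benjamini-Hochberg over all features, with a threshold of 0.05. The same code was tested on simulated data. Alternatives were edgeR 4.0.16 and DESeq2 1.42.0 on recovered reads, other scalings, pseudocounts and filters, single-model fits, a replicate block and leaving out each library. Replicate numbers were not used to pair the libraries in the main fit.

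The members, lists and tests were chosen with earlier results of these data known. Named were the largest 6 rises and falls of each mean comparison, the largest 3 of each single-model comparison, the 5 smallest p of each F-test, the related forms, the stalk genes and a short list of disease genes. Chosen after seeing the values were other named members, the 50-base windows of RefSeq Select transcripts (the longest transcripts were tried first) and their bounds of 10% and 50%, the level bound of 100, the promoter features, the genes plotted, the means without 1 model and the placing of Rpl37rt among the related forms. Results for a few members and partner genes are not reported here. Entries whose promoter window was not at the RefSeq Select start were dropped after a first look.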

Additional observations from a re-analysis of the deposited data

Results flagged for a closer look

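Of 141 gene and group combinations of 4 untreated libraries, 11 had 1 library far from the other 3 by Dixon's test, among them the 10 below; chance alone marks about 1 in 20. In NUP98-JARID1A the library titled day 3 was the far one for Rpl22l1 (594 normalized counts beside 285 to 288), Rpl7l1 (1426 beside 1036 to 1061) and Rps26 (24790 beside 18836 to 19684). In NUP98-NSD1 the library titled day 3 was far for Rps26 (29343 beside 24326 to 24932) and Rpl3l (12 beside 4.18 to 5.36). Untreated replicate 2 of NUP98-NSD1 was far for Rpl32 (11592 beside 9953 to 10022), Rpl41 (8346 beside 7547 to 7577) and Rpl6 (474 beside 653 to 671). In NUP98-DDX10, Rpl19 was high in untreated replicate 2 (39.5 beside 26.5 to 27.4) and Rpl41 low in the library titled day 3 (2903 beside 3727 to 3849).

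The day 5 effect differed between the models by limma's F-test for Rpl27 (adjusted p = 0.0175), Rpl32 (0.031) and Rps27a (0.0339), with falls in NUP98-JARID1A.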

How the results depend on the processing

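Counts of members past the threshold rest on the pooled spread, the scaling and single libraries. For most of these alternatives the share of all features that changed is not given here. Fits of 1 model alone gave 1 and 4 members in NUP98-DDX10 at days 3 and 5, 1 and 6 in NUP98-JARID1A, 14 and 18 in NUP98-NSD1, and for day 5 against day 3 2 in NUP98-JARID1A and 9 in NUP98-NSD1. CPM scaling shifted the median of all features by -0.22 in NUP98-JARID1A at day 5, -0.10 in NUP98-NSD1 and -0.11 in the mean, and the members' medians were then -0.50, -0.26 and -0.23. All features then split into 1451 rises and 4471 falls in NUP98-JARID1A and 1832 and 4286 in the mean. The members called were 40 in NUP98-JARID1A at day 5, 1 and 1 in NUP98-NSD1 at days 3 and 5, 25 in the mean at day 5, 11, 2 and 10 for day 5 against day 3 in NUP98-JARID1A, NUP98-NSD1 and the mean, and 7 in the day 5 F-test. Quantile normalization gave 1 in NUP98-NSD1 at day 5, 16 in the mean at day 5, and 1 and 8 for day 5 against day 3 in NUP98-NSD1 and the mean.

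A pseudocount of 10 gave 2 in NUP98-DDX10 at day 5 and 1 in NUP98-NSD1 at day 3, and a filter at 50 gave 0 in NUP98-DDX10 at day 5 and 0 in the mean at day 3. No filter gave 0 in the mean at day 3, and 3 in NUP98-JARID1A and 3 in the mean for day 5 against day 3. EdgeR and DESeq2 each gave 1 in NUP98-NSD1 at day 3 and 0 in the mean at day 3. Untreated libraries titled day 5 alone gave, at day 5, 5 in NUP98-JARID1A, 1 in the F-test and 0 in NUP98-DDX10. The mean without NUP98-DDX10 gave 0 at day 3 and 3 for day 5 against day 3, without NUP98-JARID1A 2 at day 3, 4 at day 5 and 1 for day 5 against day 3, and without NUP98-NSD1 0 and 1 at day 3 and for day 5 against day 3; these means were chosen after seeing the data.

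Leaving out 1 library at a time gave 0 to 3 in NUP98-DDX10 at day 5, 0 to 1 in NUP98-JARID1A at day 3 and 5 to 28 at day 5, 1 to 7 in NUP98-JARID1A for day 5 against day 3, 0 to 1 in NUP98-NSD1 at day 3, 1 to 7 in the day 5 F-test, and 0 to 1, 7 to 17 and 2 to 6 in the mean at day 3, day 5 and day 5 against day 3. Against the controls the ranges were 39 to 43 for NUP98-DDX10, 45 to 55 for NUP98-JARID1A and 28 to 45 for NUP98-NSD1. Under quantile normalization the falls of Rpl11 and Rpl24 from the controls in NUP98-NSD1 reversed to 0.027 (adjusted p = 0.951) and 0.39 (0.244). There the median of all features shifted to 0.18, 0.13 and 0.20, and the members' to 0.32, -0.05 and 0.73; CPM gave the members 0.13, -0.19 and 0.58. TMM scaling gave -0.10, -0.36 and 0.48. A filter at 50 turned the NUP98-DDX10 median to 0.05.

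With a replicate block the counts were 2 in NUP98-DDX10 at day 5, 2 in NUP98-JARID1A at day 3, 1 in NUP98-NSD1 at day 5, 1 and 9 for day 5 against day 3 in NUP98-NSD1 and the mean, and 6 in the day 5 F-test. Over 27 pairs the deviations of same-numbered libraries correlated at -0.377 to 0.344, with 4 over 0.1. Those 4 were all between untreated and day 5 libraries, at 0.344 and 0.140 in NUP98-JARID1A and 0.136 and 0.248 in NUP98-NSD1. The main fit took the numbers as names only, and whether they pair libraries is not known. The cause of none of these changes was tested. Genes with few reads have large counting error, and the number of libraries limits the rest.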
